A study of Mus musculus with 16 samples.

Results

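Cd244a, Cd48 and Ly9 encode 3 receptors of the SLAM (signalling lymphocyte activation molecule) family. They were followed here by every probe set that the platform annotation gives to one of these symbols. That rule found 3 probe sets, 1 per gene (95380_at for Cd244a, 103089_at for Cd48 and 93194_at for Ly9), among 12422 probe sets and 8251 named genes. None of the 3 shares its probe set with another symbol.

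SLAM family receptors are immunoglobulin-type molecules on the surface of blood cells, and most of them bind another copy of themselves on a neighbouring cell. Ly9 (CD229) is one of these self-binding receptors. Cd244a (2B4), best known from NK cells, is an exception and binds Cd48, a glycolipid-anchored protein found on most blood cells that in the mouse is also the ligand of the adhesion receptor Cd2. The cytoplasmic tails of Cd244a and Ly9 recruit the small adaptor SAP, encoded by Sh2d1a, which brings in the kinase Fyn. Signalling through SAP and Fyn is known from the mouse to be needed for NKT cell development. That requirement does not single out Cd244a or Ly9 among the receptors.

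The study profiled 6 sorted mouse lymphocyte populations as 3 pairs that set an innate-like population against an adaptive one. In the first pair, wild-type C57BL/6 spleens gave NKT cells, sorted as CD3+CD4+NK1.1+ (n = 3), and CD4T cells, sorted as CD3+CD4+NK1.1- (n = 3). In the second, RTOC (the labels do not spell this abbreviation out) gave CD8aaT cells, sorted as TCRb+CD8a+CD8b- after selection by 10 mM Smcy as the high agonist dose (n = 3), and CD8abT cells, sorted as TCRb+CD8a+CD8b+ after 100 nM Smcy as the low dose (n = 3). Dose and lineage cannot be told apart in this pair, and whether the millimolar unit is a slip is not known. In the third, wild-type C57BL/6 mice gave B1 cells from the peritoneum, sorted as IgM(hi)IgD(int)CD11b+ (n = 2), and B2 cells from the spleen, sorted as IgM(int)IgD(hi)CD11b- (n = 2), so lineage and site cannot be told apart. Sorts yielded about 50000 RTOC cells or 100000 cells of the other populations. Ages, pooling of animals and the strain behind the RTOC cells are not stated in the labels used here.

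Levels are log2 of the deposited intensities, and every difference is innate-like minus adaptive with the standard error (SE) of a limma fit over all 16 arrays. Adjusted p-values are limma's, corrected by Benjamini-Hochberg over 12422 probe sets, and a difference was called under 0.05. Array medians ran from 30.4 to 76.2 and differed between pairs, so log2 levels are not comparable between pairs. Replicate 1 of NKT and of CD4T stood apart from replicates 2 and 3 (SD of the log2 difference between arrays 0.383 to 0.634, against 0.126 in NKT and 0.162 in CD4T between replicates 2 and 3). The beta-actin 3'/5' ratio, which grows as labelled targets get shorter, was 5.34 in NKT and 7.02 in CD4T replicate 1. It was 3.56 to 3.72 in their replicates 2 and 3. An 18S control read 675 in NKT and 1326 in CD4T replicate 1, against 52.7 to 59.2 in replicates 2 and 3. In B1 cells it read 776 in replicate 1 and 33.4 in replicate 2, and in B2 cells 877 and 62.6. Whether the replicates are separate animals is not stated. Gate genes followed the labels in part: a probe set shared by Klrb1b and the NK1.1 gene Klrb1c was 3.67 ± 0.15 higher in NKT cells, Cd8b1 was lower in CD8aaT cells (-5.51 ± 0.34) and Ighd was lower in B1 cells (-1.25 ± 0.18). Cd8a, on which both RTOC sorts were gated, was called lower in CD8aaT cells (-0.80 ± 0.14, adjusted p = 0.030). The CD11b gene Itgam did not separate B1 from B2 cells (mean log2 5.37 in B1 and 5.36 in B2 cells).

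The 3 genes lie close together on mouse chromosome 1 in the order Cd244a, Ly9, Slamf7, Cd48. The sequences from 250 bases before to 50 after the start are shown for Cd244a and Cd48, since they encode a receptor and its own ligand, of which the first was bright in 1 population and the second in all 6. They are RefSeq windows of build GRCm38.p6, both on the plus strand, at chr1:171558943-171559242 for Cd244a and chr1:171681742-171682041 for Cd48. Of the 3 genes, 2 had a window in the table. Capitals mark every match, on either strand, to the E-box CANNTG, the RUNX motif TGTGGT, the T-box half-site TCACAC or the GATA motif GATAA.
Cd244a: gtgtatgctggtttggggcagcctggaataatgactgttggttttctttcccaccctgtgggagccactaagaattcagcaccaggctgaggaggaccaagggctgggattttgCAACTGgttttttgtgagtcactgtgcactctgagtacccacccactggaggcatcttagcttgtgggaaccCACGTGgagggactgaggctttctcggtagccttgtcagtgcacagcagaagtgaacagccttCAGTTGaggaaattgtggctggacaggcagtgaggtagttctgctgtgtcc
Cd48: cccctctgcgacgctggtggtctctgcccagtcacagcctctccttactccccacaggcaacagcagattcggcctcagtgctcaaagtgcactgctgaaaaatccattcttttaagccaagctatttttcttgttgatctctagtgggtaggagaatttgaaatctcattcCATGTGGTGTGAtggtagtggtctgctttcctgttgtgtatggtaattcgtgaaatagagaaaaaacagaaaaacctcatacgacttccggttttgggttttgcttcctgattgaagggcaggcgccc
The Cd244a window held 3 E-boxes and no match to the other motifs. The Cd48 window held 1 E-box, 1 RUNX motif and 1 T-box half-site, overlapping in a single run, and no GATA motif. Among 32851 windows of this length the E-box occurred in 72.3%, the RUNX motif in 16.8%, the T-box half-site in 14.5% and the GATA motif in 25.4%. A match describes these letters only, and no binding was measured.

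Cd244a, the receptor, was higher in CD8aaT than in CD8abT cells. Its log2 levels were 6.30, 5.75 and 6.20 in the CD8aaT arrays (replicates 1, 2 and 3), against 3.81, 3.99 and 3.56 in the CD8abT arrays. Every CD8aaT array lay above every CD8abT array by more than the spread within either group, and 5.76% of all probe sets had every CD8aaT array above every CD8abT array. The difference was 2.30 ± 0.18, a 4.91-fold higher level (95% confidence interval 3.75 to 6.43, n = 3 against 3, adjusted p = 2.3e-05). It was the third largest increase among the 12422 probe sets of this comparison, in which 23 probe sets (0.185%) were called in either direction and 19 (0.153%) called higher. The same-numbered arrays differed by 2.49, 1.76 and 2.64. With an offset of 32 added to the intensities before log2, which shrinks differences of dim probe sets, it was 1.13 (adjusted p = 0.00016). In sorted bulk samples, fewer cells with a transcript and less of it per cell cannot be told apart.

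**Figure D1:**
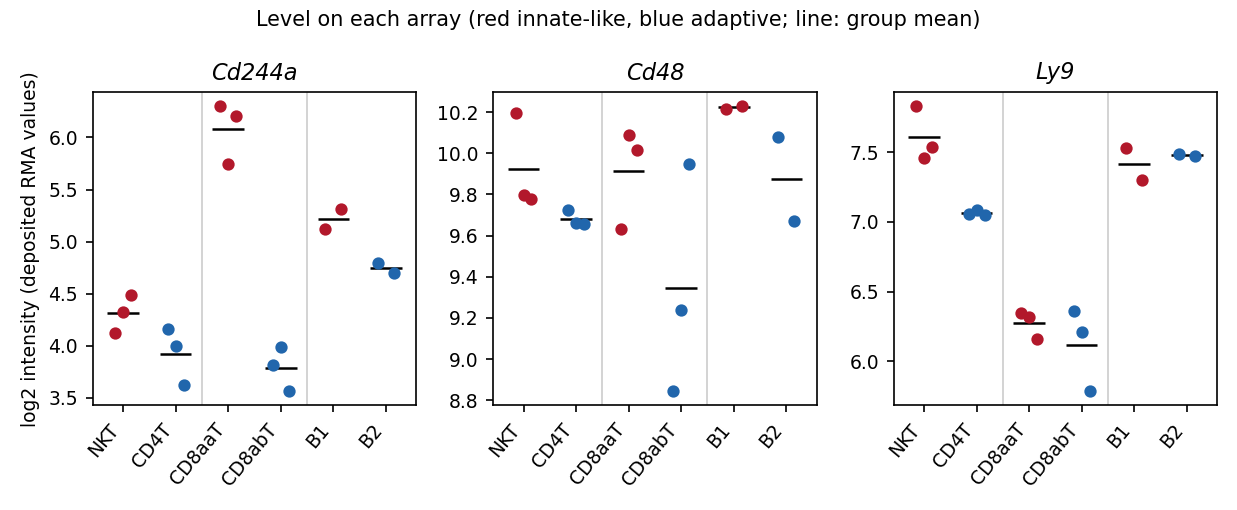
Log2 intensity (y axis) of Cd244a, Cd48 and Ly9 on each of the 16 arrays, by population (x axis), in red for the innate-like and blue for the adaptive member of each pair, with a line at the group mean. Each panel has its own scale, and levels compare only within a pair. The CD8aaT arrays of Cd244a lie between 5.75 and 6.30, above all CD8abT arrays.

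In the other pairs Cd244a was dim and its difference was not called. It had log2 levels of 4.12, 4.33 and 4.48 in NKT cells, against 4.16, 4.0 and 3.62 in CD4T cells, and the groups overlapped. The difference was 0.39 ± 0.18 (95% confidence interval -0.00 to 0.77, adjusted p = 0.81). B1 cells had 5.12 and 5.32, against 4.80 and 4.70 in B2 cells. Both B1 arrays were above both B2 arrays, as for 12.2% of all probe sets, and the difference was 0.47 ± 0.22 (95% confidence interval -0.01 to 0.94, adjusted p = 1), in a comparison that called 1.14% of probe sets.

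The differences of the pairs were themselves tested. Cd244a's difference in the NKT pair was 1.91 ± 0.26 smaller than in the CD8 pair on the log2 scale (-1.91, adjusted p = 0.0017), a contrast in which 0.692% of probe sets were called. Its difference in the CD8 pair exceeded that of the B cell pair by 1.83 ± 0.29 (adjusted p = 0.0071), where 0.733% were called. Between the NKT and B cell pairs the contrast was -0.08 ± 0.29 (95% confidence interval -0.70 to 0.53, adjusted p = 1). Without replicate 1 of every group, which leaves 1 array in each B cell group, the CD8 against B cell contrast was 1.58 and was not called (adjusted p = 0.13).

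**Figure D2:**
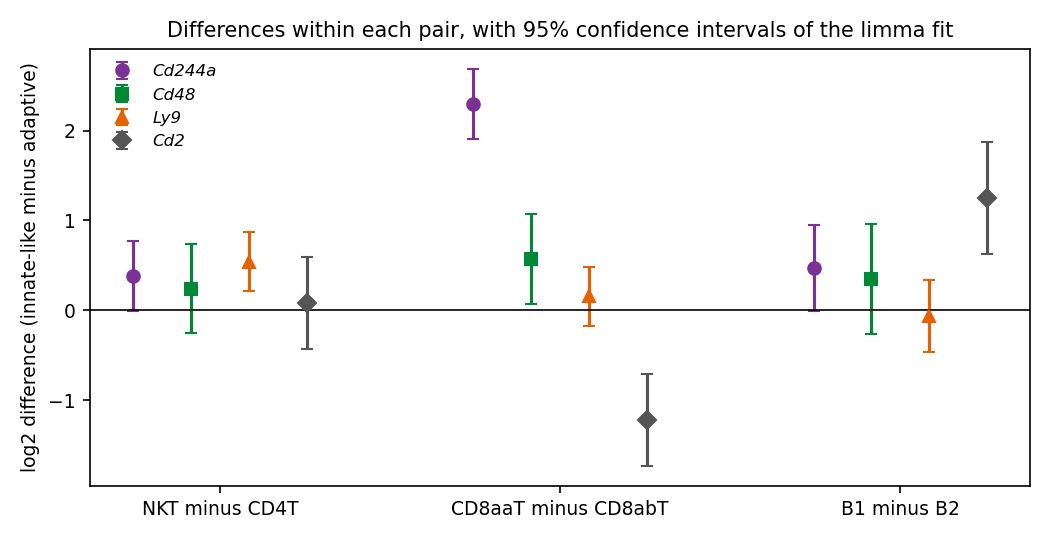
Log2 difference, innate-like minus adaptive (y axis), of Cd244a, Cd48, Ly9 and Cd2 in each pair (x axis), with 95% confidence intervals of the limma fit, unadjusted. Cd244a in CD8aaT against CD8abT cells (2.30) stands above the other member differences, which lie between -0.06 and 0.57, while Cd2 is at -1.22 there and at 1.25 in the B cell pair.

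Several measures moved with the CD8aaT group beside Cd244a, in a comparison that called 0.185% of probe sets. The beta-actin control probe sets, whose 3'/5' ratio grows as labelled targets get shorter, had ratios of 5.80, 5.76 and 5.15 in CD8aaT arrays, against 6.57, 11.6 and 7.92 in CD8abT arrays. With the beta-actin ratio as a covariate the difference of Cd244a was 2.40 ± 0.22 (adjusted p = 0.00032). The 18S control read 66.5, 273 and 249 in CD8aaT arrays (replicates 1, 2 and 3), against 129, 857 and 716 in CD8abT arrays. Both it and the Gapdh 3'/5' ratio were lower in each CD8aaT array than in the same-numbered CD8abT array, though the groups overlapped. The part of the 18S and Gapdh controls in the Cd244a difference was not tested. Of 8 measured NK cell markers 1 was called higher, Klrd1, which encodes CD94 (2.20 ± 0.37, adjusted p = 0.031), and their summed intensity was 721 to 1097 in CD8aaT arrays, against 196 to 394 in CD8abT arrays. With the replicate block, in which 3.2% of probe sets were called, 3 of the 8 were called, the others being Klrb1a (1.24) and Tyrobp (1.1). The NK receptor Ncr1 (mean log2 3.13 in CD8aaT and 3.18 in CD8abT cells) and the NK transcription factor Eomes (3.93 in CD8aaT and 4.11 in CD8abT cells) were not called. Of 9 granulocyte and mast cell markers 1 was called higher, the stem cell factor receptor Kit (1.87 ± 0.21, adjusted p = 0.0012), with sums of 245 to 348 in CD8aaT and 202 to 261 in CD8abT arrays. The mast cell receptor genes were not called, Fcer1a having a mean log2 of 3.0 in CD8aaT and 3.02 in CD8abT cells and Ms4a2 of 2.92 in CD8aaT and 2.93 in CD8abT cells. None of 11 macrophage markers was called, and their sums were 335 to 349 in CD8aaT and 364 to 403 in CD8abT arrays. With the replicate block 1 of them was called lower, Lyz2 (-0.71, adjusted p = 0.049). None of 6 B cell markers was called either, with sums of 319 to 911 in CD8aaT and 312 to 381 in CD8abT arrays. The largest difference among them was that of Blk (2.28 ± 0.83, adjusted p = 0.66), with mean log2 levels of 6.77 in CD8aaT and 4.49 in CD8abT cells. The deposited values hold no marker at 0, and the part of these markers in the Cd244a difference was not tested.

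Cd48, the ligand of Cd244a and Cd2, was bright in all 6 populations and was called in no pair. In NKT cells its log2 levels were 10.20, 9.80 and 9.78, against 9.72, 9.66 and 9.66 in CD4T cells. All NKT arrays lay above all CD4T arrays, as was so for 7.19% of all probe sets, by a margin smaller than the spread among the NKT arrays. The difference was 0.24 ± 0.23 (95% confidence interval -0.26 to 0.74, adjusted p = 1). CD8aaT cells had 9.63, 10.09 and 10.02, against 8.84, 9.24 and 9.95 in CD8abT cells. These groups overlapped, CD8abT replicate 3 being as bright as the CD8aaT arrays, and the difference was 0.57 ± 0.23 (95% confidence interval 0.07 to 1.07, unadjusted p = 0.028, adjusted p = 0.75). Without CD8abT replicate 3 it was 0.87 (adjusted p = 0.16) and without CD8abT replicate 1 it was 0.32 (adjusted p = 0.74). With the replicate block, in which 3.2% of probe sets were called, it was not called (SE 0.16, adjusted p = 0.079). B1 cells had 10.22 and 10.23, against 10.08 and 9.67 in B2 cells, a difference of 0.35 ± 0.28 (95% confidence interval -0.26 to 0.96, adjusted p = 1). Both B1 arrays were above both B2 arrays, as for 12.2% of probe sets. The value was 0.14 without B2 replicate 2 and 0.55 without B2 replicate 1.

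Ly9, the self-binding receptor, was brighter on each NKT array than on any CD4T array, as were 7.19% of probe sets, without passing the test over all probe sets. Its log2 levels were 7.83, 7.46 and 7.54 in NKT cells, against 7.06, 7.09 and 7.05 in CD4T cells. The CD4T arrays were close to each other (SD 0.02, n = 3) and the NKT arrays spread more widely (SD 0.20, n = 3). NKT replicate 1 was the brightest and had the largest beta-actin 3'/5' ratio of the NKT arrays (5.34). The difference was 0.54 ± 0.15, or 1.46-fold (95% confidence interval 1.16 to 1.83, unadjusted p = 0.0031, adjusted p = 0.13), where 1.63% of probe sets were called. With the replicate number as a block within the pair it was called (adjusted p = 0.021), a fit that called 4.84% of probe sets. It was also called with an offset of 32 added to the intensities (adjusted p = 0.049), and it stayed uncalled in the other 24 of 26 alternatives. Without replicate 1 of every group the NKT differences were 0.43 for Ly9 (adjusted p = 0.29), 0.13 for Cd48 and 0.60 for Cd244a, none called.

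The NKT arrays also differed in NK cell and macrophage markers, and bulk values do not show which cells carried these transcripts. In this comparison 1.63% of probe sets were called. Of 8 NK cell markers 4 were called higher (Klra3, Klrd1, Klrk1 and Tyrobp), with sums of 1039 to 1617 in NKT and 279 to 366 in CD4T arrays, while Ncr1 (mean log2 3.66 in NKT and 3.62 in CD4T cells) was not called. Of 11 macrophage markers 3 were called higher (Lyz2, Csf1r and Mpeg1), with sums of 797 to 993 in NKT and 541 to 775 in CD4T arrays. Of the 11, 8 lay above 0, with a median of 0.23, against -0.03 over all probe sets, and Cd14 was at -0.03. The part of the NK cell and macrophage markers in the level of Ly9 was not tested.

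In the remaining pairs Ly9 was not called. CD8aaT cells had log2 levels of 6.35, 6.32 and 6.16, against 6.36, 6.21 and 5.78 in CD8abT cells. The groups overlapped, with a difference of 0.16 ± 0.15 (95% confidence interval -0.17 to 0.48, adjusted p = 0.91). B1 cells had 7.53 and 7.30, against 7.49 and 7.47 in B2 cells, and the difference was -0.06 ± 0.19 (95% confidence interval -0.46 to 0.34, adjusted p = 1). The contrast of the NKT with the B cell pair was 0.61 ± 0.24 (adjusted p = 0.54, 1.35% of probe sets called) and that of the NKT with the CD8 pair was 0.39 ± 0.21 (adjusted p = 1). A difference of Ly9 between the pairs was therefore not shown.

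To set the 6 populations side by side, each probe set's level was also expressed as its percentile rank among the 12422 probe sets of the same array, which serves only to compare a probe set with itself. Gapdh 3'/5' ratios were higher in most RTOC arrays than in the other pairs, and the part of target quality in the ranks was not tested. Cd244a ranked highest in CD8aaT cells, at 71.4 on average (65.4 to 75.6 over arrays). It was followed by B1 cells at 30.3 (26.7 to 33.9), NKT cells at 24.2 (18.6 to 28.7), CD8abT cells at 23.4 (19.9 to 30.1), B2 cells at 19.1 (18.7 to 19.5) and CD4T cells at 15.1 (10.2 to 17.6). The ranges of B1, NKT and CD8abT overlapped one another, and that of B2 lay within that of NKT. CD8aaT cells were thus the population in which the Cd244a probe set lay above the middle of the array, and a low rank does not show whether the gene was expressed.

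Cd48 ranked between 96.1 and 98.6 on all 16 arrays. Its group means ran from 98.4 in CD8aaT to 96.8 in B2 cells, and each group's range overlapped that of its neighbour in the order. Ly9 ranked highest in NKT cells, at 81.9 (79.4 to 85.7). The other groups had mean ranks of 74.9 in B2, 74.7 in CD4T, 74.2 in CD8aaT, 74.1 in B1 and 72.0 in CD8abT cells, and neighbours among these overlapped. The highest single array outside the NKT group was CD8abT replicate 1, at 77.4.

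**Figure D3:**
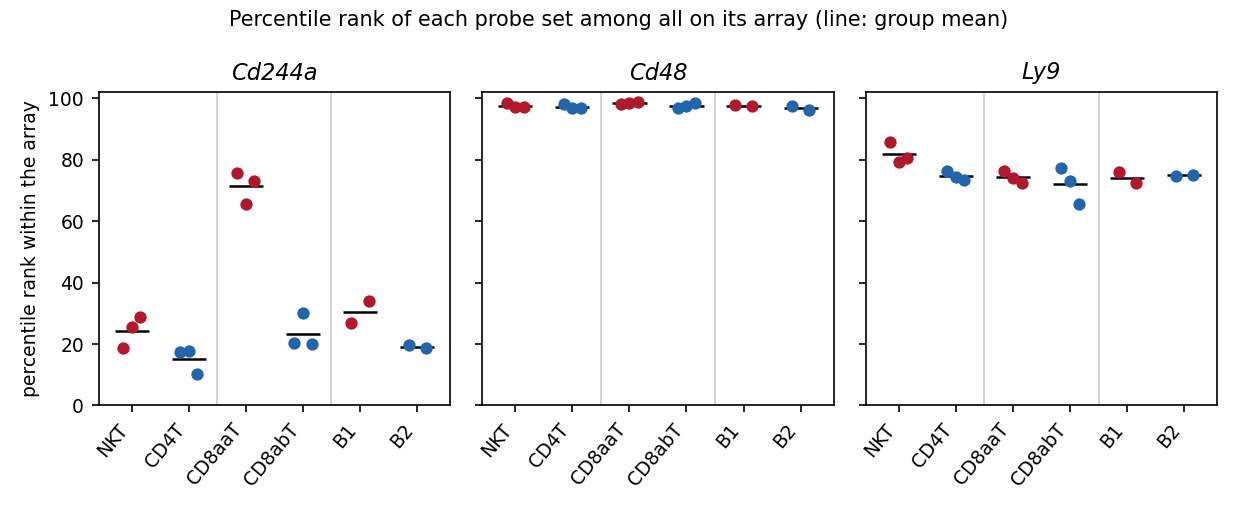
Percentile rank (y axis) of the Cd244a, Cd48 and Ly9 probe sets among 12422 on each array, by population (x axis), innate-like in red and adaptive in blue, with a line at the group mean. Cd48 stays between 96.1 and 98.6 everywhere, Ly9 is highest in NKT cells (79.4 to 85.7) and Cd244a in CD8aaT cells (65.4 to 75.6).

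Correlations among the members were low to moderate. Over the 16 arrays, after each pair's mean was taken away, Cd244a correlated with Cd48 at r = 0.51 and with Ly9 at r = 0.32, and Cd48 with Ly9 at r = 0.04. These values describe arrays that share replicate numbers and quality differences. By the same measure the genes most like Cd244a were Kit (r = 0.95), the adaptor gene Lat2 (0.89), Glce (0.86), Pspc1 (0.83) and the Bim gene Bcl2l11 (0.80). Differences within the pairs enter this measure, so genes picked by it have to differ where the member does. As a description, the CD8aaT difference was 1.87 for Kit, 1.72 for Lat2, 0.66 for Glce, 0.69 for Pspc1 and 1.24 for Bcl2l11. Those of Glce and Pspc1 were not called. The genes most like Cd48 were Eci1 (r = 0.93), Btf3 (0.90), Lrrfip2 (0.89), Eif2a (0.88) and Vti1b (0.87). Those most like Ly9 were Cmtm7 (r = 0.92), Camk2b (0.86), Il4 (0.86), Abca1 (0.85) and Rhoq (0.84). Their NKT differences were 0.33 for Cmtm7, 0.58 for Camk2b, 0.81 for Il4, 1.39 for Abca1 and 1.16 for Rhoq. Those of Cmtm7 and Rhoq were not called.

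Cd2, which shares the ligand Cd48 with Cd244a, had differences of opposite sign in CD8aaT and B1 cells. It was the only measured gene of a list of 7 that held it with 6 other SLAM family receptors, Slamf1, Cd84, Slamf6, Slamf7, Slamf8 and Slamf9, which were not analysed here. Its log2 levels were 7.66, 7.67 and 7.52 in CD8aaT cells, against 8.34, 9.21 and 8.97 in CD8abT cells. All CD8aaT arrays were below all CD8abT arrays, as for 5.51% of probe sets. The difference was -1.22 ± 0.24 (2.33-fold lower, adjusted p = 0.064). With the replicate block it was called (adjusted p = 0.0045, 3.2% of probe sets called), and with the beta-actin 3'/5' ratio as a covariate it was -0.77 (adjusted p = 0.42). In B1 cells Cd2 had 11.19 and 10.94, against 10.20 and 9.43 in B2 cells, with no overlap, as for 12.2% of probe sets, and a difference of 1.25 ± 0.29 (adjusted p = 0.064). Each of these differences was called in 6 of 26 alternatives. In NKT cells it had 10.28, 9.91 and 9.87, against 10.24, 9.77 and 9.80 in CD4T cells, a difference of 0.08 ± 0.24 (adjusted p = 1). The contrast of the CD8 with the B cell pair was called at -2.47 ± 0.38 (adjusted p = 0.0060).

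In the CD8 pair the receptors for Cd48 thus had opposite signs, Cd244a at 2.30 and Cd2 at -1.22, with Cd48 itself at 0.57. With the beta-actin ratio as a covariate these were 2.40 for Cd244a, -0.77 for Cd2 and 0.73 for Cd48, of which Cd244a was called. Cd2 is also a pan-T cell gene, but its probe set was bright in B cells too (mean percentile rank on the array 98.8 in B1 and 96.4 in B2 cells). All 7 T cell markers measured lay below 0 in CD8aaT cells, where 39.2% of all probe sets lay above 0. Their median was -0.28. None was called, beside 0.185% of probe sets, and 2 were called with the replicate block, beside 3.2%, Cd5 at -0.92 and Cd6 at -0.66. The markers had sums of 1214 to 2476 in CD8aaT and 1366 to 2996 in CD8abT arrays. The B cell pair called 1.14% of probe sets. Of 11 macrophage markers there, 2 were called higher in B1 cells, Lyz2 (2.29) and Mpeg1 (1.37). Of the 11, 6 lay above 0, with a median of 0.09, against -0.05 over all probe sets. Among the uncalled ones Csf1r was at -0.02 and Cd14 at -0.06. The 11 markers had sums of 1438 to 1675 in B1 and 989 to 1013 in B2 arrays. Of 6 B cell markers 1 was called lower in B1 cells, Cd22 (-0.87 ± 0.17, adjusted p = 0.016). The part of these markers in the levels of Cd2 and Cd244a was not tested.

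Of 20 genes that relay or restrain SLAM receptor signals 18 were measured, and none was called in any pair, set beside 1.63%, 0.185% and 1.14% of all probe sets. The median differences were 0.12 in NKT cells (against -0.03 over all probe sets), -0.03 in CD8aaT cells (against -0.05) and -0.14 in B1 cells (against -0.05). The adaptor gene Sh2d1a had mean log2 levels of 5.41 in NKT and 5.30 in CD4T cells, and its differences were 0.11 ± 0.14 in the NKT, -0.16 ± 0.14 in the CD8 and 0.10 ± 0.17 in the B cell pair. Its relative Sh2d1b1, the adaptor EAT-2, lay between -0.05 and 0.01. The kinase Fyn, which SAP recruits, was 0.18 ± 0.29 in NKT, 0.24 ± 0.29 in CD8aaT and -0.93 ± 0.36 in B1 cells (adjusted p = 0.67). The values of largest size were the inositol phosphatase gene Inpp5d in NKT cells (0.75 ± 0.42, adjusted p = 1), the Ras regulator Rasa1 in CD8aaT cells (0.64 ± 0.25, adjusted p = 0.74) and the phosphatase SHP-1, Ptpn6, in B1 cells (-1.12 ± 0.30, adjusted p = 0.13). With the replicate block, which called 4.84% of probe sets in the NKT pair and 3.2% in the CD8 pair, 2 of the 18 were called in the NKT pair, Inpp5d (adjusted p = 0.0095) and the docking protein Dok1 (0.48, adjusted p = 0.021), and 0 in the CD8 pair.

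**Figure D4:**
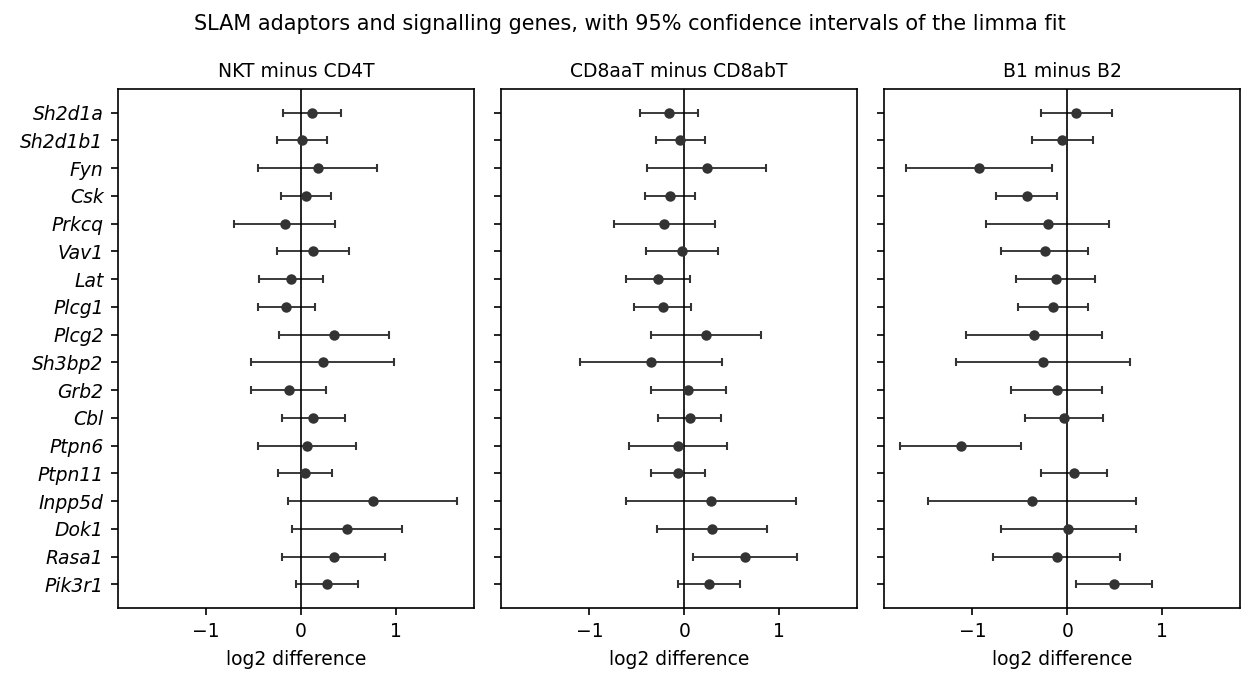
Log2 difference, innate-like minus adaptive (x axis), of 18 genes of SLAM receptor signalling (y axis) in the 3 pairs, 1 panel each, with unadjusted 95% confidence intervals of the limma fit. Most values lie near 0, and the largest in size is Ptpn6 in B1 against B2 cells (-1.12), which was not called.

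The genes around the SLAM cluster on chromosome 1 were read as well, taking the 5 nearest with a probe set on each side (Nit1, Pfdn2, Usf1, F11r and Itln1 before Cd244a, and Nhlh1, Copa, Pex19, Dcaf8 and Pea15a after Cd48). None of the 10 was called in any pair. Over all probe sets 1.63% were called in the NKT, 0.185% in the CD8 and 1.14% in the B cell pair. In CD8aaT cells their differences ran from -0.20 (Itln1) to 0.36 (Copa), with a median of -0.05, while Cd244a was at 2.30 and its neighbour Ly9 at 0.16. The value of largest size was the junction protein gene F11r in B1 cells (0.66 ± 0.19, adjusted p = 0.18).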

How the data were processed

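RNA of 16 sorted lymphocyte samples was measured on 1 Affymetrix array each. Per the submitters' processing notes the deposited intensities come from RMA, without a version or a statement of which arrays were normalized together. They are linear, and log2 was taken before fitting. Background correction in RMA can compress differences of dim probe sets. Of 12488 probe sets 66 controls were left out. The platform annotation gave 1 symbol to 10833 probe sets, several to 396 and none to 1193, and 10817 matched RefSeq GRCm38.p6 by Entrez number with 0 symbols changed.

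Differences were fitted with limma 3.58.1 in R 4.3.3 (lmFit, eBayes, two-sided, 6 group means, Benjamini-Hochberg over 12422 probe sets), checked on simulated data. A listed gene was read from its brightest probe set. Likeness was Pearson's r over 16 arrays after subtracting each pair's mean, with the 5 highest genes named. Other named genes were all member probe sets and, of each list, the genes called in a pair. The largest in size was named for the signalling and neighbour lists, while uncalled gate and marker genes were named only in part. The members and lists were chosen with earlier results of these data known.

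Same-numbered arrays deviated together (r = 0.76, 0.65 and 0.67 in the NKT pair, 0.64, 0.60 and 0.66 in the CD8 pair), so the numbers were taken to pair the T cell samples, a reading that no label states. The main fit left this pairing out, and the replicate block used it. In the NKT pair replicates 2 and 3 also correlated across numbers (r = 0.67 for NKT 3 with CD4T 2, 0.57 for NKT 2 with CD4T 3), so the data set replicate 1 apart there but do not tell 2 from 3. The B cell pair has 2 arrays a group, too few for this rule. The series calls its replicates biological without saying whether they are separate animals, and p-values reflect only how these samples scatter. The number of arrays limits the precision. Alternatives were 2 other scalings, an offset, a filter on dim probe sets, an intensity trend, the arrays of a pair alone, the replicate block, a quality covariate, a minimum difference and left-out arrays.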

Additional observations from a re-analysis of the deposited data

Results flagged for a closer look

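A test of the difference between pairs singled out 3 results. Cd244a's innate-like minus adaptive difference in the NKT pair was below that in the CD8 pair (-1.91 ± 0.26, limma adjusted p = 0.0017), and it was called in all 24 alternatives with a value. The difference of Cd244a in the CD8 pair exceeded that in the B cell pair (1.83 ± 0.29, limma adjusted p = 0.0071), called in 23 of 24 alternatives. Cd2 differed between the CD8 and B cell pairs in the opposite direction (-2.47 ± 0.38, limma adjusted p = 0.0060), called in all 25 alternatives, while neither of its 2 component differences was called alone in the fit over all arrays.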

How the results depend on the processing

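Cd244a in CD8aaT cells stayed called in all 25 alternatives with a value (1.13 with an offset of 32, 2.18 to 2.46 when single arrays were left out, limma adjusted p from 7.1e-06 to 0.042). It has no value with dim probe sets left out, since that filter, which kept 6261 probe sets, removed it. Over the 3 members and all contrasts, 442 alternative values kept direction and side of the threshold, 2 gained a call, 1 lost one and 8 turned sign. Ly9 in NKT cells became called with the offset (0.45) and with the replicate block (0.54), and the block changed no other member's call within a T cell pair. Without replicate 1 of every group the CD8 minus B cell contrast lost its call for Cd244a (1.58) and turned sign for Cd48 (-0.10), neither called. Directions also turned, all uncalled, when single arrays were left out. The ranges were -0.24 to 0.032 for Cd244a and -0.31 to 0.10 for Cd48 between the NKT and B cell pairs, -0.027 to 0.52 for Cd48 between the CD8 and B cell pairs, -0.011 to 0.28 for Ly9 in CD8aaT, -0.18 to 0.051 for Ly9 in B1 and -0.046 to 0.23 for Cd2 in NKT cells. The cause was not tested. Called probe sets numbered 202 in the NKT, 23 in the CD8 and 142 in the B cell pair. They numbered 601, 398 and 353 with the replicate block (in the B cell pair, whose numbers are not shown to pair samples, it called 2 of the 18 signalling genes, Fyn and Ptpn6), and 356, 190 and 227 without replicate 1. The offset gave 9 in the CD8 and 214 in the B cell pair, the dim filter 134 in the NKT and 71 in the B cell pair, the actin covariate 11 in the CD8 pair, the pair's own arrays 2 in the CD8 and 50 in the B cell pair, and a minimum difference of 1 gave 134 in the NKT pair. Leaving out single arrays gave 134 to 242, 10 to 57 and 64 to 164, the extremes being without NKT replicate 2, CD8aaT replicate 2 and B2 replicate 2 at the low end and without CD4T replicate 1 at the high end of all 3. Dim signals limit what Cd244a can show outside CD8aaT cells.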
